A study of Drosophila melanogaster with 39 samples.

Results

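The transcripts described here are the stored sperm tail messages Mst84Da, Mst84Db, Mst84Dc, Mst84Dd, Mst87F, Mst98Ca, Mst98Cb, don juan (dj) and don juan-like (djl). They were listed by gene name, with earlier results of these data known, and all 9 were present in both expression tables, 9 of 13659 genes. In the Drosophila male germ line these genes are transcribed in primary spermatocytes, and the messages are then kept untranslated until the spermatids elongate, long after most transcription has ended. The Mst84D, Mst87F and Mst98C genes encode proteins built of repeated cysteine, glycine and proline motifs that become part of the sperm tail. The genes dj and djl encode lysine-rich proteins, of which Don juan is found in elongating spermatids and along the mitochondrial derivatives of the sperm tail.

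RNA was sequenced from Drosophila melanogaster testes of flies 1 to 3 days old to ask how testis gene expression depends on a male germline form of the PAF1 complex, a complex that binds elongating RNA polymerase II. Whole testes gave 21 libraries of polyadenylated RNA in 7 groups of 3. The controls were the stock w1118 and a second w1118 stock labelled iso, and the mutants were Cdc73L TH1, Ctr9L TH2, Leo1L TH1, Leo1L TH1 from the inverted cross, and Paf1L TH2, all transheterozygous. Spermatocytes, the male germ cells before and during meiosis, were sorted for GFP in 3 groups of 3: w1118 controls and homozygous Leo1L FS1 and Paf1L FS1 mutants. All sorted flies, controls included, carried Cdc73L tagged with GFP at its own locus, and the stated purity was at least 85%. For sorted cells, 9 columns stand for 18 samples, since a column merges a library depleted of ribosomal RNA and one that was not. Sorting was done in 3 independent experiments according to the labels. Nothing in the labels ties the bulk replicates to separate flies or cultures, so the bulk p-values measure only the spread between these samples, which may be technical.

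Read from the step between the lowest values, the approximate depth in units of 1e+06 reads was 8.67 to 13.0 in the bulk libraries and 7.90 to 20.5 in the sorted columns. The mutated genes were low where the labels say so. In whole testis CG9899 (Ctr9L) averaged 10.3 ± 0.419 (SD, n = 3) in Ctr9L mutants against 114 and 117 in the control stocks, CG12674 (Paf1L) 4.86 ± 1.92 (n = 3) in bulk Paf1L mutants against 55.1 and 54.9, and CG10887 (Leo1L) 16.5 ± 1.01 (n = 3) in bulk Leo1L mutants against 63.0 and 62.9. In sorted columns CG10887 had 7.38 ± 1.06 in Leo1L mutants against 20.2 ± 3.03 in controls, and CG12674 had 1.03 ± 0.273 in Paf1L mutants against 21.8 ± 5.44 (n = 3 each). The gene of the other subunit was also lower there, with means of 12.7 for CG12674 in Leo1L mutants and 13.9 for CG10887 in Paf1L mutants. Neither of these differences had an adjusted p under 0.05 (limma, adjusted p = 0.0641 and 0.0780). For Cdc73L no gene was matched to the label, so its level is not given. Spermatocyte markers (8 genes) summed to 2000 to 2791 in the sorted columns, of which bol gave a mean of 1863 and twe 338. The other 6, aly, can, sa, comr, topi and kmg, had means of 3.40 to 112 in the sorted columns and were each lower there than in whole testis (15.8 to 117), although the tables were scaled separately. Muscle markers (8 genes) summed to 22.3 to 36.8 there, against 248 to 775 in whole testis, and accessory gland markers (12 genes) to 1.61 to 83.6. Markers of spermatids with late transcription (19 genes) summed to 4708 to 5870 in the sorted columns, but they were not alike. There scpr-A, scpr-B and scpr-C had means of 13.5, 2.45 and 17.3, against 1494, 217 and 1628 in whole testis. The rest had sorted means of 39.55 to 1058, some higher and some lower than in whole testis.

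All 9 genes lie on chromosome 3R (assembly BDGP6.54, which has the dm6 coordinates; Ensembl annotation), in 3 tight groups and 1 single gene. The Mst84D genes run from Mst84Dd (7363307 to 7363773, minus strand) through Mst84Dc (7364254 to 7364673, minus) and Mst84Db (7365160 to 7365627, minus) to Mst84Da (7365850 to 7366262, plus), with 222 to 486 bases between neighbours and 2 exons each. The pair dj (7059315 to 7060524, plus) and djl (7060767 to 7061919, plus) is a head-to-tail pair with 242 bases between the genes. Mst98Ca (28291338 to 28292656, plus) and Mst98Cb (28292798 to 28293863, plus) form another such pair, 141 bases apart, and each has 1 exon. Mst87F stands alone (13827151 to 13828008, minus). Mst84Da overlaps MstProx on the opposite strand and Mst87F overlaps lncRNA:CR43300, and the strand setting of the counting is not given in the sources used here, so reads of these partners cannot be told apart. MstProx itself averaged 3.11 ± 1.11 (SD) over the 6 bulk controls, against 1101 ± 107 for Mst84Da. Members with similar sequence can share reads in the same way.

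These transcripts were among the most abundant of the testis. Their summed share of all signal was 1.19% to 1.38% in whole testis and at least 0.983% after sorting. By signal, Mst98Ca ranked 14 to 26 among all genes of a bulk library and 18 to 24 in a sorted column, whereas djl ranked 458 to 1220 and 1087 to 1498. Divided by transcript length, the order in the 6 bulk control libraries was different. Mst84Db led with a signal of 4376 ± 448 per kilobase (SD, n = 6), followed by Mst87F with 4081 ± 218, Mst84Dc with 3321 ± 316 and Mst84Da with 3076 ± 299.5. Below them came Mst98Ca with 2362 ± 386, Mst84Dd with 2273 ± 317, Mst98Cb with 1584 ± 212, dj with 776 ± 147 and djl with 259 ± 44.0 per kilobase. Neighbours in this order differed by less than the larger of their SDs in 3 places, Mst84Db and Mst87F, Mst84Dc and Mst84Da, and Mst98Ca and Mst84Dd.

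Between tables, Mst98Ca and Mst98Cb had like levels in sorted control spermatocytes and in control whole testis, with log2 ratios of 0.03 and -0.05. The ratios were -0.94 for Mst84Db, -0.93 for Mst87F, -0.59 for Mst84Dc, -0.49 for Mst84Dd, -0.41 for Mst84Da, -0.40 for djl and -0.18 for dj. The median over 5348 genes was -0.08. The tables were scaled separately and come from different library kinds, so these ratios describe the tables and were not tested.

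In whole testis, dj was the member with the largest differences from control, and it fell in all 5 mutant groups. Its signal in the control stock w1118 was 773, 832 and 801, and in w1118 iso 845, 885 and 1231. It was 624.5, 721 and 659 in Cdc73L mutants, 593, 695 and 660.1 in Ctr9L mutants and 552, 624.5 and 606 in Leo1L mutants. The inverted Leo1L cross gave 655, 478 and 610.1, and Paf1L mutants gave 579, 581 and 616. Every mutant library was below every control library, and w1118 iso replicate 3 stood far above the other 5 controls.

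The fold changes of dj were largest in the Leo1L crosses and in Paf1L mutants, although the ranges of the mutant groups overlapped. From a control mean of 894 ± 169 (SD, n = 6), the level was 668 ± 48.8 in Cdc73L mutants (n = 3), a log2 fold change of -0.40 ± 0.12 (SE; limma, Benjamini-Hochberg adjusted p = 0.0244). In Ctr9L mutants it was 649 ± 51.6, a change of -0.45 (limma, adjusted p = 0.0128). In Leo1L mutants it was 594 ± 37.9, a change of -0.57 (limma, adjusted p = 0.00125), and in the inverted cross 581 ± 92.4, a change of -0.62 (limma, adjusted p = 0.000732). In Paf1L mutants it was 592 ± 21.1, a change of -0.58 (limma, adjusted p = 0.00132). By these estimates the dj signal fell by 24.4% (Cdc73L) to 34.7% (inverted cross), and in a bulk tissue fewer cells of a type and less RNA per cell cannot be told apart. The 5 comparisons share the same 6 control libraries. Without w1118 iso replicate 3 the dj changes were smaller, -0.31, -0.35, -0.48, -0.52 and -0.48 in the same order, and all passed (limma, adjusted p from 0.000214 to 0.0185).

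The dj calls in Leo1L, inverted Leo1L and Paf1L mutants passed in each of the 9 fits that left out 1 library and in each of the 12 other alternatives, leaving aside the limit on fold change. The Cdc73L call did not pass without Cdc73L replicate 1 or 3 (limma, adjusted p of 0.0792 to 0.101), nor after rescaling, quantile normalization, against w1118 alone or with an accessory gland score as covariate (0.0573 to 0.107 over these and the fit on the compared groups alone). The Ctr9L call did not pass without Ctr9L replicate 1 (-0.38, adjusted p = 0.0858) or with the compared groups alone (0.0716).

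**Figure D1:**
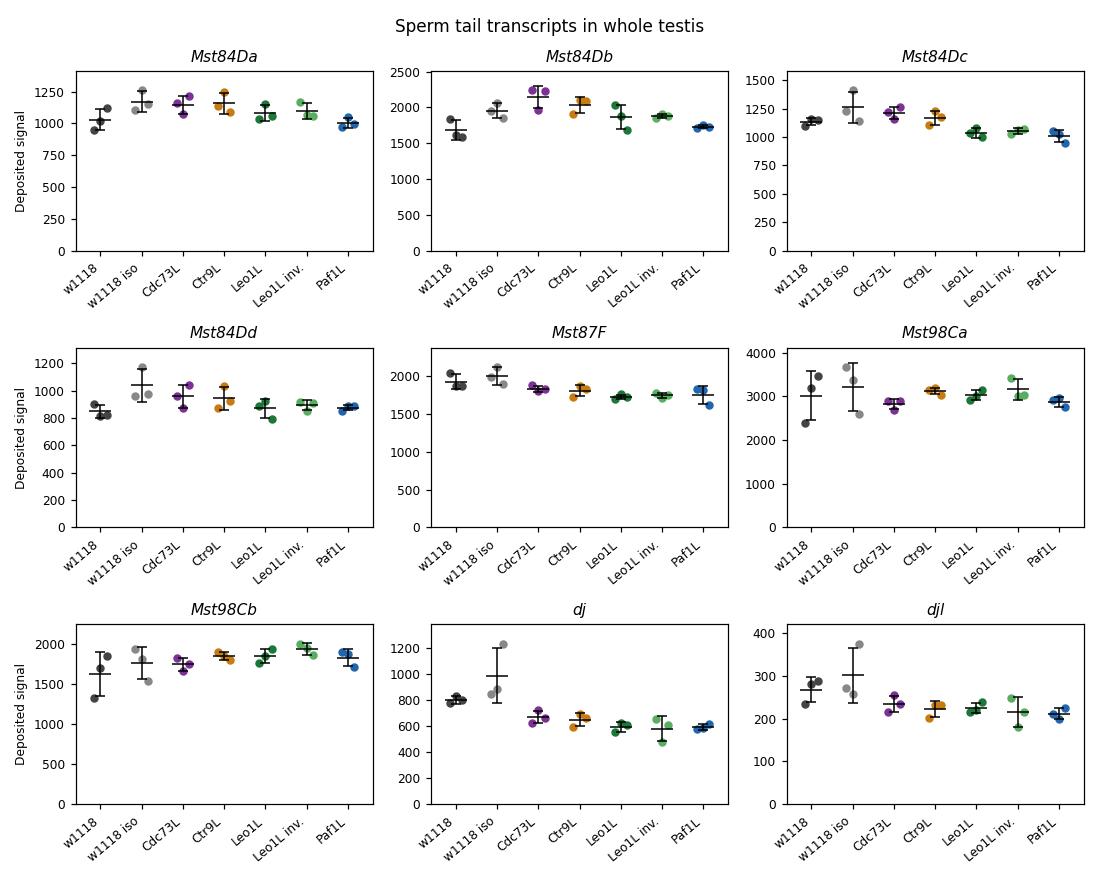
Deposited signal (vertical axes, linear from 0) of the 9 transcripts in the 21 whole-testis libraries by group; points are libraries, and the bar and whiskers are the mean and SD of 3. For dj, all 15 mutant libraries sit between 478 and 721, below the controls at 773 to 1231, while Mst98Cb and the Mst84D genes overlap between most groups.

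The tandem neighbour djl fell with dj in 4 of the 5 bulk mutants. Its control libraries had a signal of 234, 281 and 288 in w1118 and 271, 257 and 375 in w1118 iso. The mutant libraries had 215, 254 and 234 (Cdc73L), 201, 233 and 233 (Ctr9L), and 215, 220.1 and 239 (Leo1L). They had 249, 181 and 216 in the inverted Leo1L cross and 211, 199 and 225 in Paf1L mutants. Only in Ctr9L and Paf1L mutants did all 3 libraries lie below all 6 controls. The log2 fold changes were -0.34 in Ctr9L, -0.32 in Leo1L, -0.40 in the inverted cross and -0.41 in Paf1L mutants, with p-values from limma adjusted by Benjamini-Hochberg (0.0420, 0.0422, 0.0141 and 0.0126 as adjusted p). In Cdc73L mutants the change was -0.27 (limma, adjusted p = 0.111), and without w1118 replicate 1 it passed at -0.32 (0.0444).

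The djl calls depended on single libraries and on settings. Those in Ctr9L and Leo1L mutants did not pass without w1118 replicate 2 or 3, w1118 iso replicate 3 or any 1 of the mutant libraries (limma, adjusted p from 0.0556 to 0.202 and from 0.0574 to 0.144). The inverted cross did not pass without its replicate 2 (-0.28, adjusted p = 0.117), nor Paf1L without its replicate 2 (-0.37, adjusted p = 0.0673). The Ctr9L and Leo1L calls also did not pass with no filter on low values, after rescaling to 1 total, after quantile normalization or against w1118 alone, and none of the 4 passed with the compared groups alone (limma, adjusted p from 0.0528 to 0.121 over these fits). Over the 21 libraries, dj and djl varied together with a Pearson r of 0.937 on the log2 scale, which includes the differences between groups.

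The genes that flank the don juan pair on the same strand were read by position. CG1979, which ends 643 bases before dj, averaged 1243 ± 137 (SD) over the 6 bulk controls. Its log2 fold changes were -0.37, -0.34, -0.71, -0.60 and -0.72 in Cdc73L, Ctr9L, Leo1L, inverted Leo1L and Paf1L mutants, all past the threshold (limma, adjusted p from 4.25e-06 to 0.00920). Mst84B, 255 bases beyond djl, had 551 ± 63.8 in controls and changes of -0.19, -0.13, -0.26, -0.29 and -0.33, which passed in the inverted cross and in Paf1L mutants (limma, adjusted p = 0.0419 and 0.0262). All 4 neighbours on this strand, CG1979, dj, djl and Mst84B, had negative values in each bulk mutant, although not every value passed. Such values were not confined to this region. CG17944, 1183 bases from Mst84Dd on the same strand, had -0.08, -0.17, -0.44, -0.36 and -0.47 in the same order. It passed in Leo1L, inverted Leo1L and Paf1L mutants (limma, adjusted p from 0.000142 to 0.00164), whereas Mst84Dd itself passed in no bulk mutant.

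The Mst84D genes showed no common direction in whole testis. Mst84Db rose in Cdc73L mutants, from 1816 ± 186 (SD, n = 6) to 2143 ± 158 (n = 3). The 3 mutant libraries had 2243, 1960.5 and 2226, of which 2 were above all controls (1586 to 2060.0, median 1845), so the groups overlapped. The log2 fold change was 0.24 ± 0.08 (SE; limma, adjusted p = 0.0428), and it did not pass without w1118 replicate 2 or 3 or Cdc73L replicate 1 or 3 (limma, adjusted p from 0.0797 to 0.158). It also did not pass with the accessory gland score as covariate (0.25) or against w1118 iso alone (0.13). The same held with a replicate block, with the compared groups alone and with no filter on low values (limma, adjusted p up to 0.221 over these fits). Its levels in the other mutants were 2036 ± 108 in Ctr9L, 1866 ± 171 in Leo1L, 1879.6 ± 24.0 in the inverted cross and 1731 ± 20.99 in Paf1L, with no call, although against w1118 alone the Ctr9L value passed (0.28; limma, adjusted p = 0.0170).

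Mst84Dc fell in Leo1L and Paf1L mutants. The control libraries had 1098, 1157 and 1153 in w1118 and 1230.4, 1415 and 1140.3 in w1118 iso, the Leo1L libraries 1034, 1083 and 999, and the Paf1L libraries 1055, 1026 and 951. Neither mutant group overlapped the controls. The log2 fold changes were -0.20 and -0.24 (limma, adjusted p = 0.0344 and 0.0140). The inverted cross, at 1052 ± 24.3 (SD, n = 3), had -0.18 (limma, adjusted p = 0.0528), and it passed without w1118 replicate 1 or w1118 iso replicate 3 (0.0245 to 0.0429), against w1118 iso alone, with the control stocks as 2 groups and with a mean signal of at least 10 required (0.0154 to 0.0431). The Leo1L call did not pass without w1118 iso replicate 1 or 2 or any 1 of the Leo1L libraries (limma, adjusted p from 0.0506 to 0.137), nor Paf1L without its replicate 3 (-0.20, adjusted p = 0.0926). Neither passed after rescaling to 1 total, quantile normalization or with the compared groups alone, nor Leo1L against w1118 alone. Cdc73L and Ctr9L mutants had 1214 ± 53.2 and 1170.2 ± 60.9, against 1199 ± 114 in controls.

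Mst84Da and Mst84Dd passed in no bulk mutant. Mst84Da had 1147 ± 71.4, 1157 ± 79.7, 1080.5 ± 60.8, 1096 ± 61.6 and 1004 ± 40.8 in Cdc73L, Ctr9L, Leo1L, inverted Leo1L and Paf1L mutants, against 1101 ± 107 in controls (SD, n = 3 and 6). Mst84Dd had 959 ± 83.4, 945 ± 84.1, 870.2 ± 68.7, 894 ± 37.9 and 875 ± 17.5, against 943 ± 131. Their log2 fold changes lay between -0.13 and 0.08, and every group mean lay within the range of the controls. The Mst84Dd signal of Leo1L replicate 3, 794, was below the lowest control, 818. Against w1118 iso alone, Mst84Dd passed in Leo1L mutants (-0.25; limma, adjusted p = 0.0408) and Mst84Da in Paf1L mutants (-0.22; limma, adjusted p = 0.0365). Between control stocks, Mst84Dd rose from 848 ± 45.2 in w1118 to 1038 ± 118 in w1118 iso, by 0.29 (limma, adjusted p = 0.0488), with no overlap. For dj the iso libraries were also above all w1118 libraries, by 0.28 on the log2 scale, which did not pass (limma, adjusted p = 0.172). Mst84Dd was the only member of 9 called between the stocks (8.69% of 10925 tested genes were called and 5.16% were called higher). This call did not pass without any 1 of the w1118 libraries or without w1118 iso replicate 2 (limma, adjusted p from 0.0552 to 0.226). Nor did it pass after rescaling, quantile normalization, without the filter on low values, with the compared groups alone or with a replicate block. All 9 members were higher in w1118 iso, with a median of 0.16 against 0.00 over all genes and 0.05 over genes with a mean signal of at least 100, and 4 had an unadjusted p under 0.05. That shift between the control stocks is larger in size than the members' median in any bulk mutant. Mst84Db passed in the comparison of the stocks without w1118 replicate 1 (0.29, adjusted p = 0.0462).

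Mst87F, whose leader sequence is the classical example of a translation delay element of the male germ line, fell in 3 bulk mutants. Its controls had 2041, 1863 and 1871 (w1118) and 1986, 2119 and 1888 (w1118 iso). Leo1L mutants had 1699, 1757 and 1715, the inverted cross 1772, 1710.4 and 1744, and Paf1L mutants 1829, 1809 and 1618. All 9 of these libraries were below the lowest control. The log2 fold changes were -0.18, -0.17 and -0.16 (limma, adjusted p = 0.0204, 0.0315 and 0.0415), so that the signal fell by 10.7% to 12.0%. Ctr9L mutants, at 1805 ± 72.7, were also below all controls, but the highest Ctr9L library had 1861.8 and the lowest control 1862.6. Their change was -0.12 (limma, adjusted p = 0.152), and Cdc73L mutants had 1830.3 ± 39.2.

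The Mst87F calls did not pass after rescaling to 1 total, against w1118 alone or with the compared groups alone. After quantile normalization the Leo1L and Paf1L values were -0.10 and -0.05 and did not pass (limma, adjusted p = 0.245 and 0.572), and with no filter on low values neither the inverted cross (0.0585) nor Paf1L passed. The Paf1L call also did not pass with a replicate block. The Leo1L call did not pass without Leo1L replicate 1 or 3, the inverted one without w1118 iso replicate 2 or any 1 of its own libraries, and the Paf1L one without w1118 iso replicate 1 or 2 or any 1 of its own (limma, adjusted p from 0.0502 to 0.263 over these fits).

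Mst98Ca and Mst98Cb passed in no bulk comparison. Mst98Ca had 2822 ± 121, 3122 ± 72.1, 3026 ± 119, 3161 ± 232 and 2878 ± 109 in Cdc73L, Ctr9L, Leo1L, inverted Leo1L and Paf1L mutants, against 3115 ± 510 in controls (SD, n = 3 and 6). Its control libraries alone ran from 2382 to 3676, wider than the mutants. Mst98Cb had 1741 ± 84.3, 1849 ± 47.5, 1846 ± 84.9, 1932 ± 72.1 and 1824 ± 103, against 1689 ± 226. Its log2 fold changes were 0.05, 0.14, 0.14, 0.20 and 0.12 (limma, adjusted p from 0.0978 to 0.708). After rescaling to 1 total or quantile normalization it passed in Leo1L, inverted Leo1L and Paf1L mutants at 0.20 to 0.24 (limma, adjusted p from 0.00571 to 0.0245), and in the inverted cross also without w1118 iso replicate 1 (0.0398) and against w1118 alone (a change of 0.27). UQCR-14L, 184 bases beyond Mst98Cb, went the other way, with -0.44, -0.39 and -0.34 in these 3 mutants (limma, adjusted p from 0.000566 to 0.00523). Between the control stocks UQCR-14L was itself higher in w1118 iso, by 0.26 (limma, adjusted p = 0.0385).

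Counted together, 2 of the 9 members were called in Cdc73L mutants (dj lower, Mst84Db higher), where 18.5% of 10925 tested genes were called, and 2 in Ctr9L mutants (dj and djl, both lower), where 18.8% were called and 8.59% were called lower. In Leo1L mutants 4 of 9 were called, all lower (dj, djl, Mst84Dc, Mst87F), against 26.6% of all genes called and 13.3% called lower. In the inverted cross 3 of 9 were called, all lower (dj, djl, Mst87F), against 27.9% and 13.9%, and in Paf1L mutants 4 of 9, all lower (dj, djl, Mst84Dc, Mst87F), against 24.7% and 12.8%. The count of 2 of 9 in Cdc73L and in Ctr9L mutants is near the share over all genes called. The 4 of 9 in Leo1L and in Paf1L mutants are above it, and since the members were chosen with results known, no test of the set was made. The median SE was 0.09 for the members and 0.117 for all tested genes, so members were easier to call. The share called among abundant genes is not given here, and dj and djl, which varied together, are among the calls in both. The median log2 fold change of the members was 0.02, 0.01, -0.11, -0.07 and -0.13 in the same order, and that of all tested genes lay between 0.00 and 0.03. All 9 members were abundant, and over the 2240 genes with a mean signal of at least 100 the median was -0.08, -0.05, -0.07, -0.03 and -0.05, so the members' median was above that of abundant genes in Cdc73L and Ctr9L mutants and below it in the other 3.

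**Figure D2:**
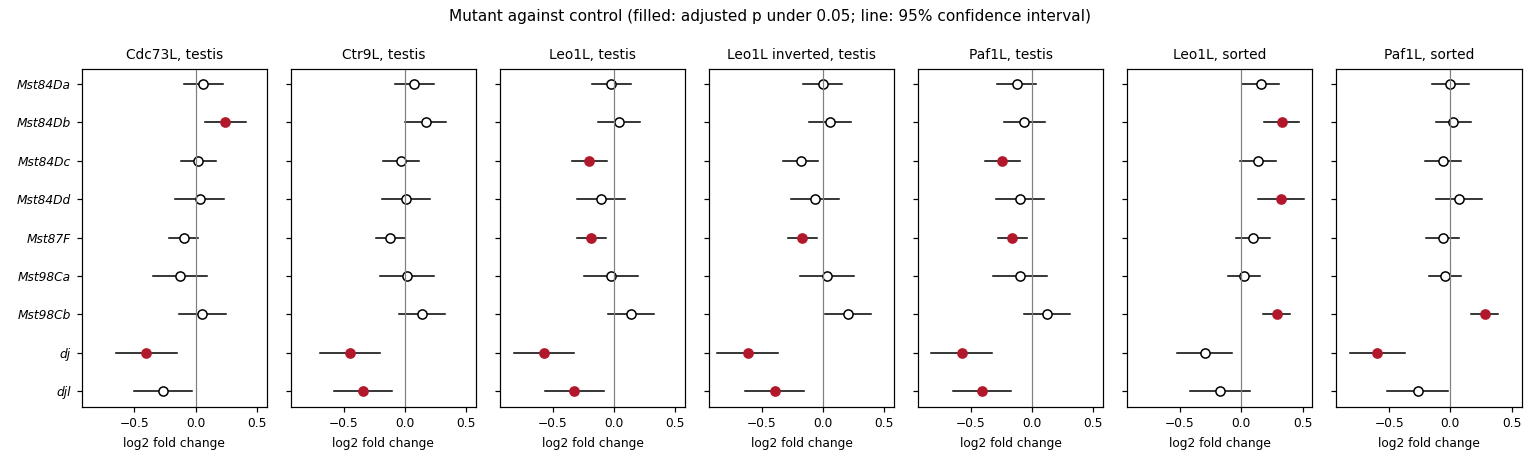
Log2 fold change of mutant against control (horizontal axes, log2 scale) for the 9 transcripts in 5 whole-testis and 2 sorted-spermatocyte comparisons; circles are limma estimates, lines 95% confidence intervals, and filled circles have an adjusted p under 0.05. The dj estimates lie between -0.30 and -0.62 in all 7 panels, and Mst98Cb is filled in both sorted panels at 0.28 and 0.29.

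Marker sums of other cells differed between libraries. Those of the accessory gland also varied widely within a genotype, from 30.4 to 2324 in the inverted Leo1L cross. The 8 muscle markers summed to 521 to 775 in control libraries and 248 to 704 in mutants. The 12 accessory gland markers summed to 21.7 to 403 in Cdc73L mutants, against 539 to 2356 in controls and 30.4 to 4073 in the other mutants. The 19 markers of late-transcribing spermatids summed to 8686 to 10410 in controls, 8062 to 9665 in Cdc73L and Ctr9L mutants, and 6640 to 7858 in the 3 other mutant groups. With the accessory gland score as covariate, dj had values of -0.41, -0.45, -0.57, -0.62 and -0.58, and the Cdc73L call, where these markers were lowest, did not pass (limma, adjusted p = 0.102). The part of the muscle and spermatid markers in the results was not tested.

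Cross direction and subunit were compared directly among bulk mutants. Between the inverted and the other Leo1L cross no member was called by limma, 0 of 9, nor any of the 10925 genes tested (0%), and no member had an unadjusted p under 0.05. The difference for dj was -0.04 (95% confidence interval -0.33 to 0.24). Between Paf1L and Leo1L mutants 0 of 9 were called by limma (0.110% of all genes) and none had an unadjusted p under 0.05. The dj difference there was -0.00 (95% interval -0.29 to 0.28), and that of Mst84Dc was -0.04 (-0.21 to 0.13), so differences of about 0.2 to 0.3 on the log2 scale could not be seen.

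In sorted spermatocytes, Mst98Cb rose in both mutants, and no call was made for its upstream neighbour Mst98Ca. The Mst98Cb signal was 1657, 1634 and 1612 in control columns, 2067, 2033 and 1897 in Leo1L columns, and 2027, 1964 and 1968 in Paf1L columns. Neither mutant overlapped the controls, and the mutants overlapped each other. From 1635 ± 22.3 (SD, n = 3) it rose to 1999 ± 90.0 in Leo1L mutants, a log2 fold change of 0.29 ± 0.05 (SE; limma, adjusted p = 0.00167). In Paf1L mutants it rose to 1986 ± 35.1, a change of 0.28 ± 0.05 (limma, adjusted p = 0.00143). Both calls passed in each of the 6 fits that left out 1 column and in each of the 8 other alternatives apart from the limit on fold change, with values from 0.26 to 0.38. Mst98Ca was 3213, 3161 and 3165 in controls, 3378, 3314 and 3004 in Leo1L columns and 3122, 2884 and 3260.1 in Paf1L columns, with changes of 0.02 and -0.04 (limma, adjusted p = 0.859 and 0.637).

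The dj transcript fell in sorted Paf1L mutants. Its control columns had 816, 815 and 737, the Leo1L columns 602, 587 and 746, and the Paf1L columns 446, 548 and 578. The Paf1L columns lay below all controls, and 1 Leo1L column, replicate 3, lay within the controls. The level went from 789 ± 45.4 (SD, n = 3) to 524 ± 69.0 in Paf1L mutants, a log2 fold change of -0.60 ± 0.10 (SE; limma, adjusted p = 0.00107), and this passed in all 6 fits without 1 column and all 8 other alternatives apart from that limit. In Leo1L mutants it was 645 ± 87.9, a change of -0.30 (limma, adjusted p = 0.0694), which passed without Leo1L replicate 3 (-0.41, adjusted p = 0.0220) after quantile normalization (-0.36, 0.0251) and with the compared groups alone (0.0385).

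The djl transcript had 227, 212 and 208 in control columns, 193, 174 and 207 in Leo1L columns and 145, 194 and 205 in Paf1L columns. All mutant columns lay below all controls, by little at the nearest pair. Its changes were -0.17 and -0.27 (limma, adjusted p = 0.360 and 0.111), and the Paf1L one passed without Paf1L replicate 3 (-0.36, adjusted p = 0.0425). CG1979 beside dj fell in both sorted mutants, by 0.26 and 0.40 on the log2 scale (limma, adjusted p = 0.00848 and 0.000277), and Mst84B fell in Paf1L mutants, by 0.34 (limma, adjusted p = 0.0251).

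Mst84Db and Mst84Dd rose in sorted Leo1L mutants, and neither was called in sorted Paf1L mutants. Mst84Db had 868, 1009 and 963 in controls, 1135, 1224 and 1204 in Leo1L columns, and 922, 1024 and 941 in Paf1L columns. The Leo1L columns lay above all 6 others. The log2 fold change in Leo1L mutants was 0.33 ± 0.07 (SE; limma, adjusted p = 0.00459), which passed in all 6 fits without 1 column and all 8 other alternatives apart from that limit. In Paf1L mutants it was 0.03 (limma, adjusted p = 0.824). The difference between the mutants was not past the threshold for either gene: Paf1L against Leo1L was -0.30 for Mst84Db and -0.26 for Mst84Dd (limma, adjusted p = 0.0845 and 0.266).

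Mst84Dd had 634, 736 and 645 in controls, 764, 836 and 928 in Leo1L columns and 645, 769 and 698 in Paf1L columns. The Leo1L columns lay above all controls, with a change of 0.33 (limma, adjusted p = 0.0203), but it did not pass without control replicate 1 or 3 or Leo1L replicate 2 or 3 (limma, adjusted p from 0.0543 to 0.101), nor with no filter on low values. Mst84Da was 923 ± 56.7 and 827 ± 65.5 in Leo1L and Paf1L mutants, against 827 ± 33.5 in controls (SD, n = 3 each), and Mst84Dc was 873 ± 48.8 and 760.3 ± 27.2, against 796 ± 58.6. Mst87F was 1104 ± 77.6 and 986 ± 24.5, against 1031 ± 50.1. No call was made for these 3 genes, whose changes lay between -0.06 and 0.16.

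Of the 9 members, 3 were thus called in sorted Leo1L mutants, all higher (Mst84Db, Mst84Dd, Mst98Cb), where 16.5% of 9495 tested genes were called and 9.53% called higher. In sorted Paf1L mutants 2 were called (Mst98Cb higher, dj lower), where 25.4% were, so that count is near the share over all genes. The median SE was 0.0679 for the members and 0.204 for all tested genes, so members were easier to call in both comparisons. The medians of the members were 0.14 and -0.04, against 0.02 and 0.05 over all tested genes and -0.02 and -0.10 over the 2023 genes with a mean signal of at least 100. Both comparisons use the same 3 control columns. Between the mutants all 9 members had lower values in Paf1L than in Leo1L columns, from -0.01 for Mst98Cb to -0.30 for Mst84Db, with a median of -0.16 against -0.01 over all genes and -0.08 over the abundant ones. None of the 9 was called by limma (0.442% of all genes were), and 6 had an unadjusted p under 0.05. The accessory gland markers summed to 5.62 to 83.6 in control columns, 2.45 to 7.10 in Leo1L and 1.61 to 3.20 in Paf1L columns. The spermatocyte markers summed to 2581 to 2791, 2218 to 2453 and 2000 to 2167, but most of that sum was bol. Their mean log2 signal differed little, at 5.476 to 5.595, 5.314 to 5.544 and 5.354 to 5.474 in the same order. Leo1L columns overlapped the controls in that mean, and Paf1L columns lay just below them. The part of these markers in the results was not tested.

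**Figure D3:**
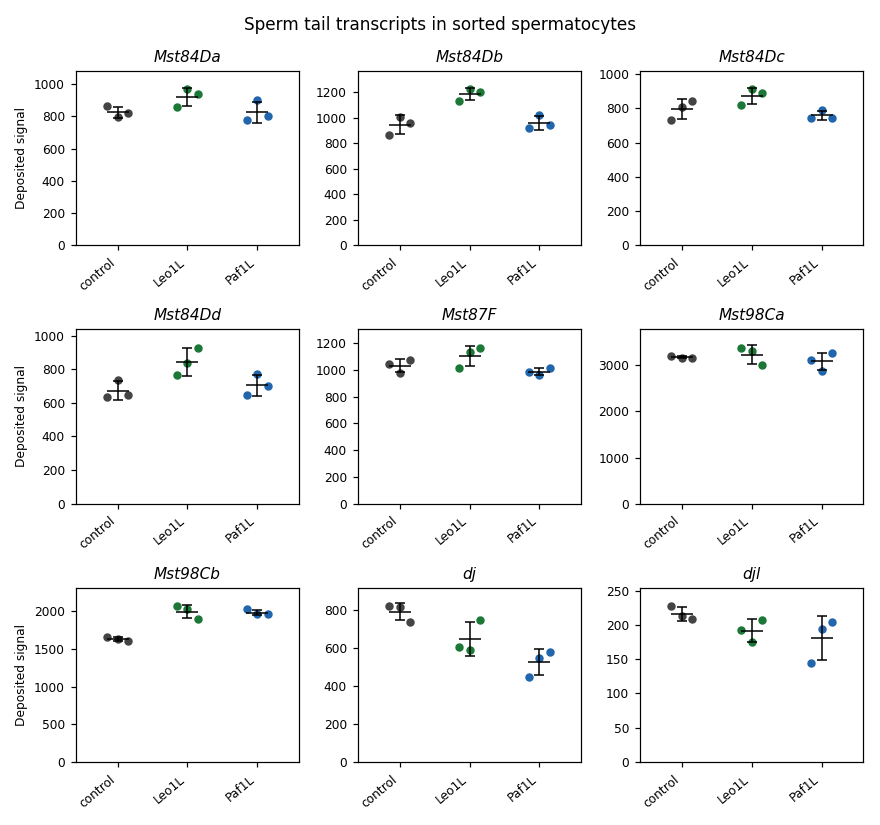
Deposited signal (vertical axes, linear from 0) of the 9 transcripts in the 9 columns of sorted spermatocytes by genotype; points are columns, and the bar and whiskers are the mean and SD of 3. Mst98Cb lies at 1612 to 1657 in controls and 1897 to 2067 in mutants, dj falls from 737 to 816 in controls to 446 to 578 in Paf1L mutants, and Mst84Db is highest in Leo1L mutants.

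The ratio of the upstream to the downstream gene of a head-to-tail pair was taken in each library. These ratios were chosen after the values were seen and are given as a description. Exact permutation tests over libraries, 14 with Benjamini-Hochberg adjustment, gave no adjusted p under 0.05 (lowest 0.0556). In sorted columns such a test could not give a p under 0.1. Mst98Ca over Mst98Cb had a geometric mean of 1.84 in the 6 bulk controls (1.69 to 1.91), and 1.62, 1.69, 1.64, 1.63 and 1.58 in Cdc73L, Ctr9L, Leo1L, inverted Leo1L and Paf1L mutants. Cdc73L, Leo1L and Paf1L libraries lay below all controls, and the other 2 groups overlapped them. In sorted columns the ratio was 1.95 in controls (1.93 to 1.96), 1.62 in Leo1L mutants (1.58 to 1.63) and 1.55 in Paf1L mutants (1.47 to 1.66), with no overlap with the controls.

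For dj over djl the ratio was 3.14 in bulk controls (2.78 to 3.44) and 2.85, 2.92, 2.64, 2.70 and 2.80 in the mutants in the same order, with overlap in each. In sorted columns it was 3.66 in controls (3.54 to 3.83), 3.36 in Leo1L (3.12 to 3.60) and 2.91 in Paf1L mutants (2.82 to 3.08), and the Paf1L columns lay apart from the controls while the Leo1L columns overlapped them. Both genes of each pair lie on the same strand. Reads that run from the upstream into the downstream gene would count toward the downstream gene, with or without strand information. Such reads were not measured, and their part in these ratios was not tested.

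**Figure D4:**
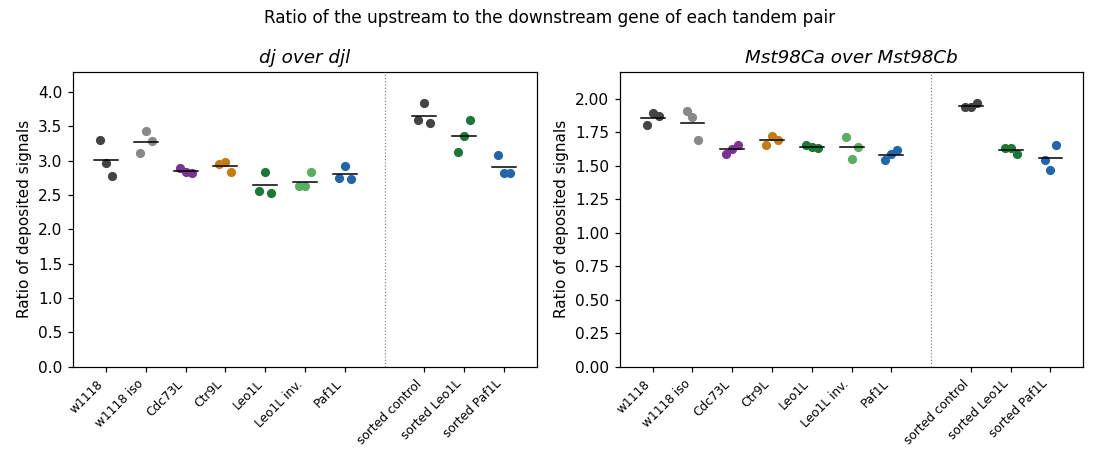
Ratio of deposited signals of dj over djl (left) and Mst98Ca over Mst98Cb (right) in each library by group (vertical axes, linear from 0); points are libraries or columns, lines group means, and the dotted line parts whole testis from sorted columns. Sorted control columns have Mst98Ca over Mst98Cb ratios of 1.93 to 1.96, and all sorted mutant columns lie at 1.47 to 1.66.

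The members did not vary as 1 block across libraries. On the log2 scale the Mst84D genes correlated with one another at Pearson r of 0.556 to 0.730 over the 21 bulk libraries and 0.688 to 0.919 over the 9 sorted columns. Mst84D against dj or djl gave -0.204 to 0.508 in bulk and -0.110 to 0.213 in sorted columns, and Mst98C against dj or djl gave -0.487 to 0.0584 and -0.811 to 0.0467. Mst98Ca and Mst98Cb correlated at 0.774 in bulk and 0.0956 in sorted columns. These values describe libraries that share normalization and groups, with no test. The genes most like the mean of the members were CG8517 (r = 0.905), CG8349, CG14668, ocn and CG30398 (0.893) in bulk, among 7712 genes over 21 libraries, and CG33308 (0.937), UQCR-Q, CG30192, CG12464 and CG14609 (0.913) in sorted columns, among 5581 genes over 9 columns.

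Other genes of the same programme were read as lists. Over all tested genes, 10.1%, 8.59%, 13.3%, 13.9% and 12.8% were called lower and 8.41%, 10.2%, 13.4%, 14.1% and 11.9% higher in Cdc73L, Ctr9L, Leo1L, inverted Leo1L and Paf1L mutants. In sorted Leo1L and Paf1L mutants 6.95% and 12.3% were called lower and 9.53% and 13.0% higher. The lists were chosen with results known and none was tested as a set. Of 16 other stored or testis-specific Mst transcripts, 7 fell and none rose in Cdc73L mutants, 4 fell and none rose in Ctr9L mutants, 6 fell and 1 rose in Leo1L mutants, 5 fell and 1 rose in the inverted cross, and 4 fell and 1 rose in Paf1L mutants. In sorted columns none fell and 1 rose in Leo1L mutants, and 5 fell and 1 rose in Paf1L mutants. The medians of the list lay between -0.21 and -0.01, against -0.00 to 0.05 for all tested genes. Over genes with a mean signal of at least 100, a level most of the list reached, the medians lay between -0.10 and -0.02. Mst89B and tHMG2, an HMG box protein of spermatid chromatin, fell in 6 of the 7 comparisons, with values over all 7 of -0.34 to -0.13 and -0.44 to -0.16. Between the control stocks 5 of the 16 were called higher in w1118 iso and none lower, with a median of 0.13, and tHMG2 was among them, by 0.35 (limma, adjusted p = 0.00325). The testis transcript janB rose in 5 of 7, with values over all 7 of -0.01 to 0.30. Among these, ocn is also 1 of the 5 bulk genes most like the members.

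Of 12 testis transcription activators, subunits of tMAC and of the testis TFIID forms that spermatocytes need to transcribe such genes, 2, 1, 3, 3 and 5 rose in Cdc73L, Ctr9L, Leo1L, inverted Leo1L and Paf1L mutants, and 1 fell, in Ctr9L mutants. In sorted columns 3 rose and 1 fell in Leo1L mutants, and 3 rose and 2 fell in Paf1L mutants. The testis TAF gene mia rose in 6 of 7, with values over all 7 of 0.16 to 1.07, and topi, a zinc finger subunit of tMAC, in 6 of 7, with 0.15 to 0.76. The testis TAF gene can fell in both sorted mutants, by 0.59 and 0.77 (limma, adjusted p = 0.0369 and 0.00630).

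Of 9 genes of male germline translation control, 1 rose in each bulk mutant, a share near that of all genes, namely Rbp4, an RNA-binding protein that represses translation in spermatocytes, with values of 0.20 to 0.39 (limma, adjusted p from 2.44e-05 to 0.0121). In bulk 1 fell in each of Cdc73L, Ctr9L and Leo1L mutants, eIF4E3, a testis form of the cap-binding protein (-0.38, -0.33 and -0.19). In sorted columns 2 fell in Leo1L and 3 in Paf1L mutants, among them eIF4G2, a germline form of the initiation factor eIF4G, by 0.53 and 0.64 on the log2 scale (limma, adjusted p = 0.000664 and 9.47e-05), and none rose.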

How the data were processed

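The authors deposited 1 table for whole testis and 1 for sorted spermatocytes, each holding a normalized signal for every gene, named GeTMM. The submitters' processing notes name STAR, Salmon, edgeR 3.34.0, DESeq2 and the build dm6, without their roles. The strand setting is not given in the sources used here. Between 69.9% and 93.5% of low values per library lay within 0.1 of a whole multiple of a step, and 25.2% to 36.3% did after multiplication by transcript length, so levels were divided here by annotated length where genes are compared. Each total over its step gave the approximate depth.

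Fold changes are on the log2(signal + 1) scale, which understates those of low genes. Genes with a mean signal of at least 1 (10925 and 9495) entered a linear model per gene with an intensity trend (limma 3.58.1, R 4.3.3) over all libraries of a table. Both control stocks formed 1 group, a choice settled on when results with 1 and with 2 control groups were known, and p-values were adjusted by Benjamini-Hochberg within a comparison; a call is an adjusted p under 0.05. The script was tested on simulated data, with a limit on recovery that was lowered after a stricter one was missed. The 9 members, and in each list the genes called most often or with the largest changes (at most 3), are named, and flanking genes were taken by position. Members and lists were chosen with earlier results of these data known. The alternatives changed the scaling, filter, pseudocount, groups, controls, replicate block or accessory gland covariate, or left out 1 library.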

Additional observations from a re-analysis of the deposited data

Results flagged for a closer look

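Among the 6 bulk control libraries, the dj signal of w1118 iso replicate 3, 1231.5, stood apart: its gap to the next control was 0.756 of the whole range, above Dixon's 95% critical value for 6 samples. The same library was highest for djl, at 375, with a gap of 0.621 of the range, below that value. Chance passes this limit in about 1 in 20 groups, and 9 genes were read. Without this library all 5 bulk dj calls passed, at log2 fold changes of -0.31 to -0.52.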

How the results depend on the processing

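Counts of called members (main counts 2, 2, 4, 3 and 4 in bulk Cdc73L, Ctr9L, Leo1L, inverted Leo1L and Paf1L mutants, 1 between control stocks, 3 and 2 in sorted Leo1L and Paf1L mutants, and 0 in the other comparisons) changed as follows; alternatives and comparisons not listed kept the number. A log2 fold limit of 1 gave 0 in each. No filter on low values gave 1, 1, 3, 2 and 3 in the bulk mutants, 0 between stocks and 2 in sorted Leo1L. A mean signal of at least 10 gave 4 in the inverted cross. Rescaling to 1 total and quantile normalization each gave 1, 1 and 2 in Cdc73L, Ctr9L and Leo1L, 3 in Paf1L (Mst84Dc and Mst87F lost, Mst98Cb gained) and 0 between stocks, and quantile normalization gave 4 in the inverted cross and 4 in sorted Leo1L. Rescaling kept 3 in the inverted cross, of which 2 were among the main calls. The compared groups alone gave 0, 0, 1, 1, 1 and 0 in the 5 bulk mutants and between stocks, and 4 in sorted Leo1L. The w1118 controls alone gave 1, 2, 1, 3 and 3 in the bulk mutants (Ctr9L with 1 and the inverted cross with 2 of the main calls), the iso controls alone 1, 2, 5, 4 and 5, and the accessory gland covariate 0 in Cdc73L.

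Leaving out 1 library gave 0 to 3, 0 to 2, 1 to 4, 1 to 4 and 2 to 4 in the 5 bulk mutants, 0 to 1 between stocks, 2 to 3 in sorted Leo1L and in sorted Paf1L mutants, and 0 to 0 in each comparison among mutants. A replicate block gave 1 in Cdc73L, 3 in Paf1L, 0 between stocks and 1 in sorted Paf1L against Leo1L (Mst84Db, limma, adjusted p = 0.0197). Same-numbered libraries deviated with a median correlation of -0.00677 over 63 bulk and 0.0784 over 9 sorted pairs (-0.111 to 0.276). The labels name 3 independent sorting experiments without saying that a replicate number marks 1 of them, so the numbers were not taken as pairs. Whether the control stocks formed 1 group or 2 was settled with both results known; as 2 groups the 5 bulk counts were 2, 2, 4, 4 and 4, the fourth gaining Mst84Dc. The cause of these shifts was not tested. No direction of a called member reversed under any alternative run. With 3 libraries a group, standard errors of 0.05 to 0.14 limit what could be seen.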
